A study of Homo sapiens with 28 samples.

Results

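The genes described here are the 10 members of the MCM helicase and origin licensing group, MCM2, MCM3, MCM4, MCM5, MCM6, MCM7, MCM10, CDC6, CDT1 and GMNN, among the 58278 genes counted in this series. They were chosen by symbol, each symbol matched 1 gene, and all 10 had enough counts to be tested in tumors and in cultures. The data are RNA-seq read counts of HCT116, an established human colorectal carcinoma cell line, here marked with luciferase and GFP and grown as xenografts in NOD-SCID mice. Mice received vehicle (Control), the CDK4 and CDK6 inhibitor Palbociclib, the glutaminase inhibitor Telaglenastat (spelled Telaglenestat in the sample labels) or both drugs (Combination) by daily gavage for 23 days, and tumors were collected on day 31. The 16 tumor libraries come from 3 Control, 5 Palbociclib, 4 Telaglenastat and 4 Combination tumors. The 12 culture libraries come from independent cell lines explanted from 3 tumors of each treatment and grown without drug, and the labels do not record which tumor gave which line. The tumor libraries are bulk RNA, so fewer cells in a cell cycle phase and less RNA per cell cannot be told apart in any value below.

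Before a cell copies its DNA, origins of replication are licensed in late mitosis and G1. The origin recognition complex, CDC6 and CDT1 load the ring-shaped MCM2 to MCM7 helicase onto DNA, where it stays inactive until S phase. Geminin, the product of GMNN, binds CDT1 in S and G2 and blocks a second round of loading, and MCM10 takes part in switching the loaded helicase on. Transcription of these genes is largely under E2F control, which is released when CDK4 and CDK6 phosphorylate the retinoblastoma protein in G1, and GMNN and CDC6 are known for levels that change through the cell cycle.

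Promoter sequences are shown for MCM6, GMNN and MCM10, the 3 members that were called lower in Palbociclib tumors also when tumors and cultures were fitted together. Sequences are from RefSeq (GRCh38.p14), which gave 11 promoters for 8 of the 10 members, and each run holds the 190 bases before a start site, 5′ to 3′, with matches to E2F words in capitals. The words searched on both strands in the 250 bases before each start were TTTCCCGC, TTTGGCGC, TTTCGCGC and TTTGCCGC.
MCM6 (minus strand, chr2:135876444-135876633): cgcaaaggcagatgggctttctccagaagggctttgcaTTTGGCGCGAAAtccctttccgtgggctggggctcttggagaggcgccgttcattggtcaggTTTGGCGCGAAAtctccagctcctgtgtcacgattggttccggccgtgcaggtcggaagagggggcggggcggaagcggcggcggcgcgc
GMNN (plus strand, the second of 2 start sites, chr6:24775223-24775412): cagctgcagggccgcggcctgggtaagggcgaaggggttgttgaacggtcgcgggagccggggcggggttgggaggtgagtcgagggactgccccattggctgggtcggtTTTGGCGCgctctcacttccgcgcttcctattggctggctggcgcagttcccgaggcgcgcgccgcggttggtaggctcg
MCM10 (plus strand, chr10:13161368-13161557): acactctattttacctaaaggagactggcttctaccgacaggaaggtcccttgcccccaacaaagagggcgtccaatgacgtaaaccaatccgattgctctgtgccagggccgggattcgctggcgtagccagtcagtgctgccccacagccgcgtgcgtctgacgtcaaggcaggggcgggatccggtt
The MCM6 window held 2 stretches that each read as TTTGGCGC on one strand and, overlapping it, TTTCGCGC on the other, which gave 4 matches. MCM7 held 2 matches in 1 of its 3 promoters, GMNN held 1 in the printed promoter and none in that of its first start site, and MCM3 and CDT1 held 1 each. These letters were not found in the windows of MCM2, MCM10 and CDC6. Counted by promoter, an E2F word was present in 5 of the 11 promoters of members and in 2.79% of all 35116 promoters. CCAAT, the NF-Y word, was present in 8 of the 11 and in 32.0% of all promoters, and the CHR words TTTGAA and TTCGAA in 1 (MCM6) and in 14.3%. A match is a description of letters and not a measured binding site.

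In GENCODE release 29 on GRCh38, MCM6 lies at chr2:135839626-135876426 on the minus strand, GMNN at chr6:24774931-24786099 and MCM10 at chr10:13161554-13211104, both on the plus strand. CDC6 lies on chromosome 17, CDT1 on 16, MCM3 on 6, MCM4 on 8, MCM5 on 22, MCM2 on 3 and MCM7 on 7. MCM2 (chr3:127598223-127622436) shares 45 exonic bases with TPRA1 and 1113 with an antisense gene, both on the opposite strand, and MCM7 (chr7:100092728-100101940) shares 392 with AP4M1. The libraries keep strand, but whether strand was used in counting is not stated, so some reads of MCM2 and MCM7 could belong to these neighbours.

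Reads counted on genes ranged from 6273834 to 13815675 per library, and the smallest count of any member in any library was 23 reads (CDT1 in 1 Combination tumor). The libraries differed in how a gene's log2 CPM deviated with its GC content, and in tumors this slope went with treatment. Per SD of GC content it was 0.255 ± 0.00606 (SD, n = 3) in Control, 0.284 ± 0.107 (n = 5) in Palbociclib, -0.338 ± 0.0355 (n = 4) in Telaglenastat and -0.208 ± 0.0573 (n = 4) in Combination tumors. A technical GC effect and the response to Telaglenastat therefore cannot be told apart, and the counts of members called between tumor groups are given beside those of a fit that removes each library's trend on GC content and gene length. The interaction of the drugs is given on the counts alone. The members span GC contents from 41.4% (GMNN) and 43.1% (MCM6) to 57.5% (MCM5), 58.1% (MCM2) and 65.2% (CDT1). Among cultures, the slope was 0.0818 ± 0.133 in Control and -0.115 ± 0.0157 in Palbociclib cultures (SD, n = 3 each). It was 0.124 ± 0.258 in Telaglenastat and -0.0913 ± 0.0322 in Combination cultures (n = 3 each). Palbociclib tumor 2 (slope 0.096) and Telaglenastat culture 2 (0.422) stood apart from their groups. The 8 markers of colon epithelium summed to 2228 to 2636 CPM in Control, 2551 to 3405 in Palbociclib, 1456 to 1597 in Telaglenastat and 2057 to 2393 in Combination tumors and to 1239 to 2209 CPM in cultures, with LGALS4 at 0 in 6 of the 8 groups and VIL1 at 0 in Telaglenastat tumors. In Telaglenastat tumors EPCAM was at 470 to 507 CPM, above its 390 to 403 CPM in Control tumors, and KRT8 at 435 to 528 CPM, below its 997 to 1206 CPM. Of 7 stroma markers, DCN was at 0 outside Palbociclib tumors and LUM outside Telaglenastat cultures, and the summed level was 160 to 201 CPM in Control, 114 to 195 in Palbociclib, 53.4 to 63.8 in Telaglenastat and 99.4 to 148 in Combination tumors, against at most 12.7 in cultures. The 5 macrophage and leukocyte markers summed to 14.2 to 19.8 CPM in Control, 22.1 to 30.5 in Palbociclib, 2.71 to 9.89 in Telaglenastat and 9.66 to 16.6 in Combination tumors, and the 4 endothelial markers to at most 2.57 CPM, with CDH5 at 0. The host cells of these xenografts are of mouse, while reads were aligned to the human genome. The stroma, macrophage and endothelial sums are thus no measure of host cell content, and whether they hold mouse reads was not tested. The part of these cell types in the results was not tested. MKI67, TOP2A and PCNA, a list for proliferating cells, summed to 821 to 936 CPM in Control, 401 to 534 in Palbociclib, 991 to 1138 in Telaglenastat and 421 to 661 in Combination tumors, and to 1178 to 1811 CPM in cultures.

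Levels per length (RPKM, from CPM over the exonic length of each gene) differed widely within the group. In Control tumors MCM3 (57.9 RPKM, mean of n = 3) and MCM7 (54.6) were highest and overlapped between libraries. MCM6 followed at 33.5 RPKM, then MCM4 at 31.8 and MCM2 at 20.4, and these did not overlap with their neighbours in the order. MCM5 was the lowest hexamer subunit at 9.04 RPKM, below the loading factor CDC6 (11.9) and the inhibitor GMNN (11.04), which overlapped with each other. MCM10 (7.36) and CDT1 (5.60) were lowest and overlapped. In Control cultures MCM3 was again highest (107 RPKM) and MCM5 (8.16) and CDT1 (4.14) lowest, whereas CDC6 (39.2) lay above MCM2 (30.3). Exonic length counts all annotated exons, which for MCM4 (6973 bases) and MCM5 (7338 bases) include long alternative ones, so their RPKM may be low.

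**Figure D1:**
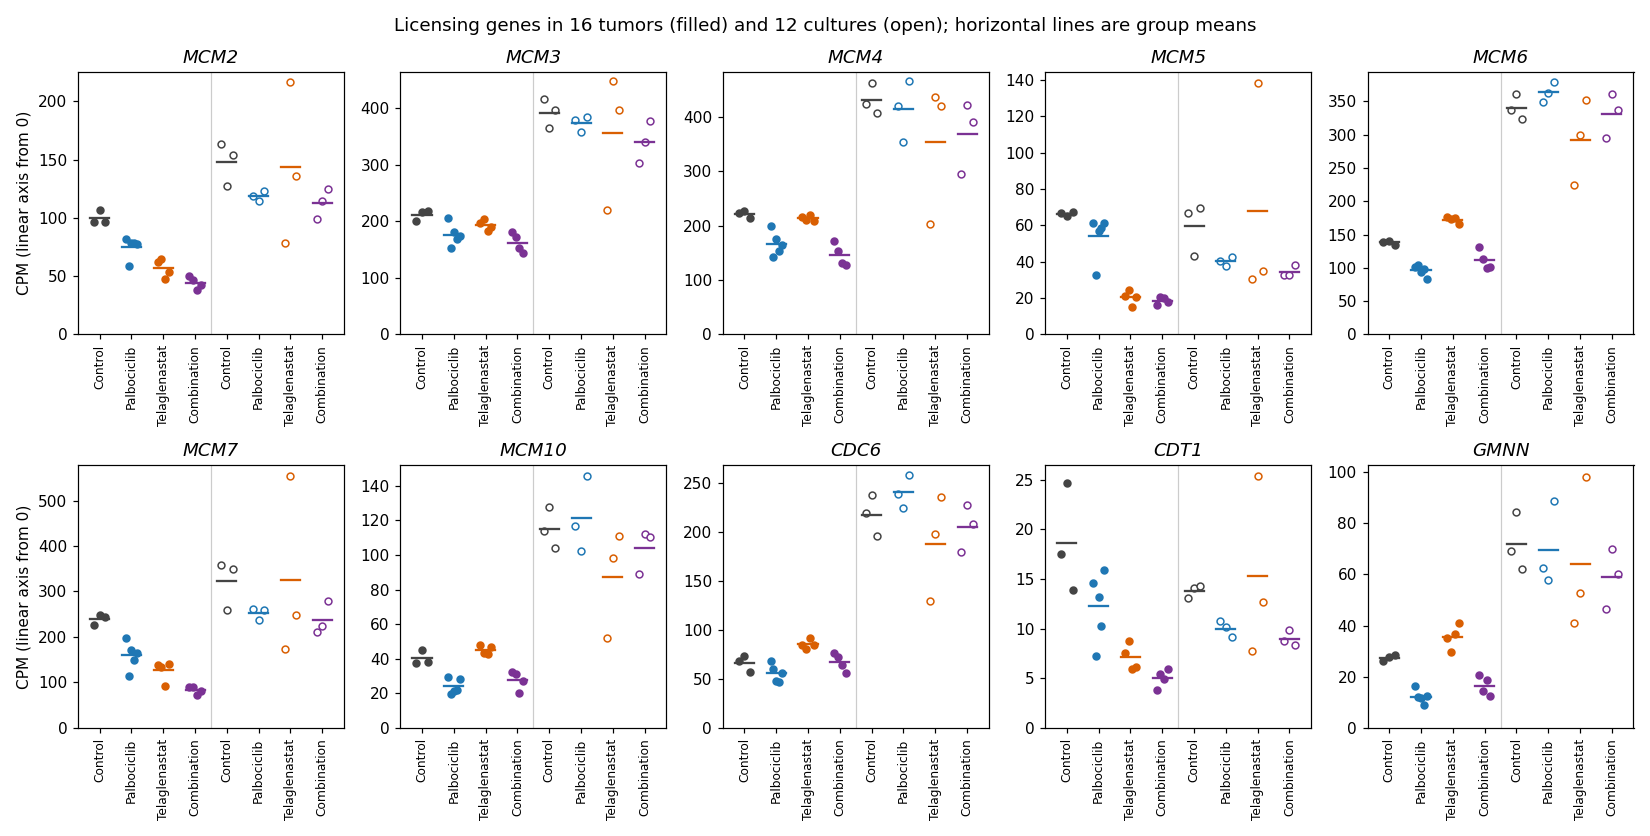
CPM (linear axes from 0) of the 10 genes in each of the 16 tumors (filled points) and 12 cultures (open points), by treatment, with lines at the group means. GMNN lay between 26.1 and 28.3 CPM in Control and between 8.82 and 16.2 in Palbociclib tumors, and Telaglenastat cultures spread most.

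The first comparison asked what Palbociclib did to the licensing genes in tumors. Most of the group was lower than in Control tumors: 6 of the 10 members were called lower (MCM2, MCM4, MCM6, MCM7, MCM10 and GMNN) and none higher, while 3.6% of all 14848 genes tested were called lower. With GC content and length corrected, 8 members were called lower, CDT1 and MCM3 being added, against 4.03% of all genes. The median change of the 10 members was -0.46 on the log2 scale, beside 0.00 over all genes. The 6 called on the counts are 4 of the ring subunits, the activation factor MCM10 and the inhibitor GMNN, while the ring subunit MCM5 and the loading factor CDC6 did not pass in either fit.

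GMNN, the inhibitor of CDT1, had the largest change. Its values were 26.1, 27.6 and 28.3 CPM in Control and 16.2, 11.9, 11.5, 8.82 and 12.5 CPM in Palbociclib tumors. Every Palbociclib tumor lay below every Control tumor, and the log2 fold change was -1.16 ± 0.16 (SE), with an adjusted p of 0.000112 (edgeR). MCM10, which acts in helicase activation, measured 37.5, 44.7 and 38.3 CPM in Control and 29.5, 19.6, 21.0, 21.8 and 28.1 CPM in Palbociclib tumors. Its groups did not overlap either (log2 fold change -0.74 ± 0.14, adjusted p 0.00184). MCM6, a subunit of the helicase ring, fell from 139, 140.2 and 135 CPM in Control to 102, 104, 93.4, 97.6 and 83.7 CPM, again without overlap. Its log2 fold change was -0.52 ± 0.08 (adjusted p 0.000218).

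Across the 6 ring subunits the log2 changes spread with an SD of 0.13. MCM7 was 226, 248 and 244 CPM in Control and 197, 114, 172, 149 and 164 CPM in Palbociclib tumors (log2 fold change -0.58 ± 0.13, adjusted p 0.0104). MCM4 went from 215 to 227 CPM in Control to 142 to 199 CPM (-0.41 ± 0.09, adjusted p 0.00663), and MCM2 from 96.4 to 106 CPM to 58.8 to 82.1 CPM (-0.41 ± 0.11, adjusted p 0.0274). For both, all Palbociclib tumors lay below all Control tumors. MCM3 (-0.26 ± 0.08, adjusted p 0.0684) and MCM5 (-0.28 ± 0.16, adjusted p 0.364) did not pass on the counts, although MCM5 was between 65.1 and 67.3 CPM in Control and at most 61.5 CPM in Palbociclib tumors. CDC6 (56.7 to 73.0 CPM in Control, 47.0 to 68.4 in Palbociclib tumors) and CDT1 (13.8 to 24.7 and 7.23 to 15.9) overlapped between groups, with log2 fold changes of -0.24 ± 0.11 (adjusted p 0.262) and -0.61 ± 0.22 (adjusted p 0.128).

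Palbociclib tumor 2, whose GC slope stood apart, was the lowest of its group for MCM2 (58.8 CPM), MCM3, MCM4, MCM5 (33.0 CPM), MCM7, MCM10 and CDT1. Without it 6 members were called, and the log2 fold changes of MCM2 and MCM7 were -0.33 and -0.48. The call of MCM2 was lost without any 1 of the Control tumors (log2 fold changes -0.43, -0.36 and -0.42) and that of MCM7 without Control tumor 2 (log2 fold change -0.56), when 4 members were called. In one fit of all 28 libraries, MCM6, MCM10 and GMNN alone were called, although the log2 fold changes of MCM2 (-0.41), MCM4 (-0.41) and MCM7 (-0.59) were nearly those above.

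**Figure D2:**
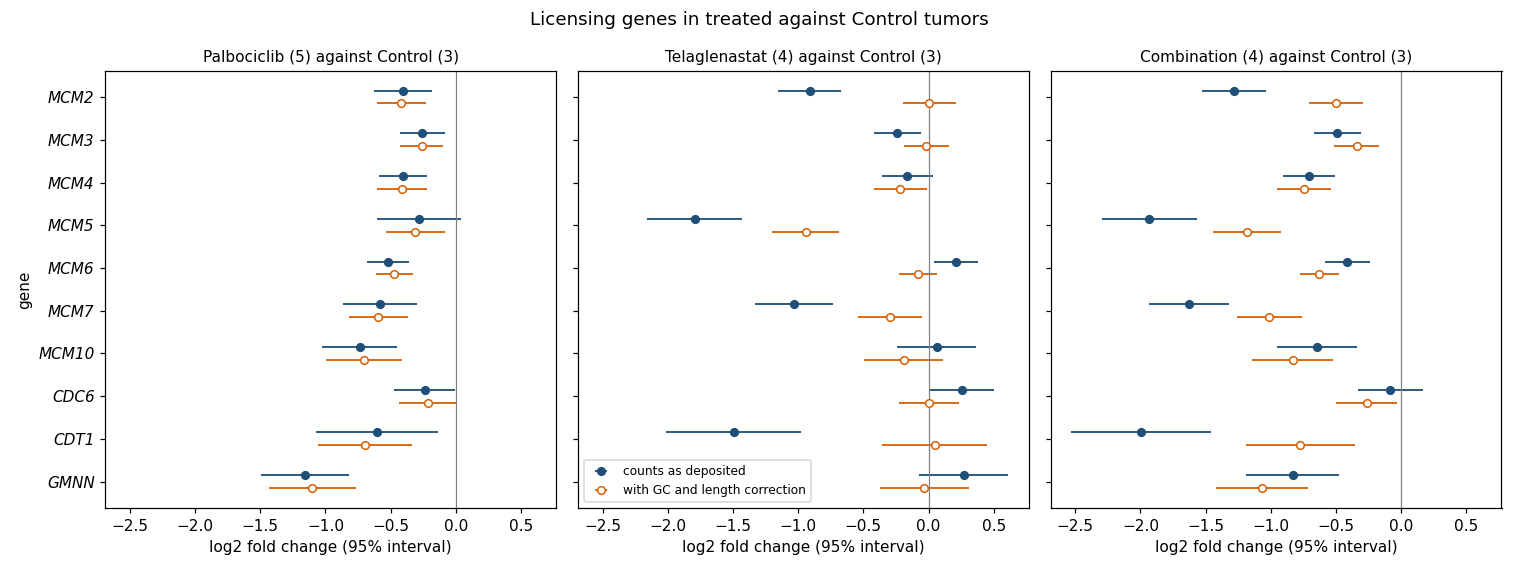
Log2 fold changes (points) with 95% intervals (bars) of the 10 genes in Palbociclib, Telaglenastat and Combination tumors against Control tumors, on counts as deposited (filled) and with GC content and length corrected (open). The Palbociclib values of both fits lie side by side, while in Telaglenastat tumors the corrected values lie nearer 0 for MCM2, MCM7, CDT1 and MCM5, the last moving from -1.79 to -0.94.

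Telaglenastat tumors were compared with Control tumors next. On the counts, 5 members were lower (CDT1, MCM2, MCM3, MCM5 and MCM7) where 28.5% of all genes were. Another, MCM6, was higher, where 22.6% were, so the share of members called higher did not exceed that of all genes. MCM5 fell most: 66.6, 65.1 and 67.3 CPM in Control against 21.4, 24.7, 15.4 and 20.7 CPM, with no overlap and a log2 fold change of -1.79 ± 0.17 (adjusted p 9.52e-08, edgeR). With DESeq2 size factors 4 members were lower and 2 higher, where 4041 and 3855 of all genes were, and MCM3 was not called. CDT1, the loading factor that geminin inhibits, was 17.5, 24.7 and 13.8 CPM in Control and 7.54, 8.79, 5.95 and 6.16 CPM in Telaglenastat tumors (-1.50 ± 0.25, adjusted p 5.33e-05). Again every treated tumor lay below every Control tumor.

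MCM7 (-1.03 ± 0.14) and MCM2 (-0.91 ± 0.12) were the next lowest, at 91.6 to 141 CPM and 47.8 to 65.0 CPM in Telaglenastat tumors, both without overlap with Control. MCM3 was slightly lower (-0.24 ± 0.09, adjusted p 0.0253) and MCM6 slightly higher (0.21 ± 0.08, adjusted p 0.0335), and each of these calls was lost when any 1 of several libraries was left out. The MCM3 value was -0.23 without Control tumor 2, -0.22 without Control tumor 3, -0.20 without Telaglenastat tumor 3 and -0.23 without Telaglenastat tumor 4. The MCM6 value was 0.22, 0.22 and 0.20 without Control tumors 1, 2 and 3, and 0.20 and 0.21 without Telaglenastat tumors 1 and 2. MCM4 (-0.16 ± 0.09), MCM10 (0.06 ± 0.14), CDC6 (0.26 ± 0.12) and GMNN (0.27 ± 0.16) did not pass. GMNN stood at 29.6 to 40.8 CPM and CDC6 at 80.5 to 91.3 CPM, in both cases above all Control tumors.

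The order of these changes followed GC content. Over the 10 members the correlation of GC content with the log2 fold change was -0.92 on the counts and -0.19 after the correction, a description across genes that are not independent. With the correction, 1 member was called, MCM5, at -0.94 (adjusted p 3.36e-05), where 7.58% of all genes were called lower. The corrected values of MCM2 (0.01), CDT1 (0.05), CDC6 (0.00), GMNN (-0.03) and MCM3 (-0.02) were near 0, MCM6 (-0.08) turned direction, and MCM7 was at -0.30 (adjusted p 0.107). Of the 10 members, the fall of MCM5 was thus the one called in both fits, at different sizes. MCM2 and CDT1, with a GC content above that of MCM5, did not keep their calls. For MCM5 too, a GC effect and the response to the drug cannot be told apart.

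**Figure D3:**
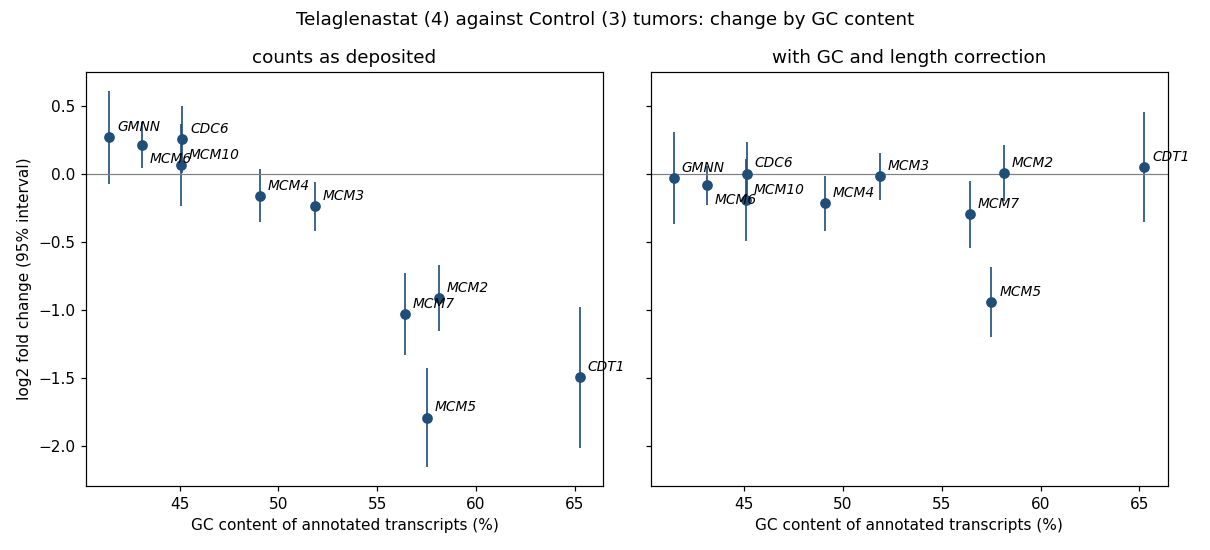
Log2 fold change in Telaglenastat against Control tumors (points, bars are 95% intervals) by the GC content of each gene, on counts as deposited (left) and with GC content and length corrected (right). On the left the values descend from 0.27 for GMNN (41.4% GC) to -1.50 for CDT1 (65.2% GC), with MCM5 lowest at -1.79, and on the right MCM5 alone remains below -0.5.

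In Combination tumors the licensing genes were lower almost throughout. On the counts 9 of 10 members were called lower than in Control tumors, all but CDC6, where 26.9% of all genes were, and with the correction the count was again 9, where 13.1% of all genes were. GMNN was 20.7, 14.3, 18.5 and 12.5 CPM, below all Control tumors, at -0.83 ± 0.17 on the counts and -1.07 corrected. MCM10 (19.9 to 32.3 CPM; -0.65 ± 0.15, corrected -0.83) and MCM6 (100.5 to 132 CPM; -0.41 ± 0.08, corrected -0.63) behaved alike in that the corrected change was larger.

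For the GC-rich members the correction made the change smaller. CDT1 was 3.78, 5.40, 4.91 and 5.89 CPM, at -2.0 ± 0.26 on the counts and -0.77 corrected. MCM5 was 15.9, 20.7, 19.8 and 17.96 CPM (-1.93 ± 0.18, corrected -1.18) and MCM7 90.3, 89.6, 72.3 and 80.5 CPM (-1.63 ± 0.15, corrected -1.01). None of these values reached the range of the Control tumors. MCM2 (37.7 to 50.2 CPM) was at -1.28 ± 0.12 and corrected at -0.50, MCM4 (127 to 172 CPM) at -0.71 ± 0.09 and -0.74, and MCM3 (143 to 180.4 CPM) at -0.49 ± 0.09 and -0.34. The adjusted p of the 9 members was at most 0.00132 on the counts and 0.0071 corrected (edgeR). CDC6, at 55.5 to 76.3 CPM, overlapped Control (-0.08 ± 0.12 on the counts, adjusted p 0.607, edgeR). With the correction 9 were called. All 10 members, CDC6 included, had an unadjusted p under 0.05 (edgeR), without a share over all genes to set beside them. The 6 ring subunits summed to 977 ± 25 CPM in Control, 728 ± 88 in Palbociclib, 783 ± 38 in Telaglenastat and 565 ± 63 in Combination tumors (SD, n = 3, 5, 4 and 4).

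Against Palbociclib tumors, Combination tumors had 6 members lower on the counts (CDT1, MCM2, MCM3, MCM4, MCM5 and MCM7), where 27.5% of all genes were, and 3 with the correction (MCM4, MCM5 and MCM7), where 7.61% were. The corrected values were -0.33 for MCM4, -0.87 for MCM5 and -0.42 for MCM7. The call of MCM3 on the counts (-0.23 ± 0.08) was lost without Palbociclib tumor 1 or Combination tumor 4, with a value of -0.18 in each case. GMNN, MCM10, MCM6 and CDC6 did not pass in either fit, with 95% intervals on the counts from -0.01 to 0.66 for GMNN and from -0.19 to 0.37 for MCM10.

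Against Telaglenastat tumors, Combination tumors had 8 members lower on the counts (all but CDT1 and MCM5), where 9.89% of all genes were. With the correction 8 were lower (all but CDC6 and MCM5), where 7.07% were. The GC slopes of these groups share a sign but did not overlap. They ran from -0.386 to -0.300 in Telaglenastat and from -0.287 to -0.160 in Combination tumors. GC content and log2 fold change of the members correlated at 0.53 on the counts and 0.07 corrected. GMNN was at -1.10 ± 0.16, MCM10 at -0.71 ± 0.14, MCM6 at -0.63 ± 0.08, MCM7 at -0.60 ± 0.14 and MCM4 at -0.55 ± 0.09. All Combination tumors lay below all Telaglenastat tumors for 8 members, these 5 with MCM3, CDC6 and CDT1, the last not called on the counts. For MCM7 the groups nearly met, at most 90.3 CPM against at least 91.6 CPM. The share of all genes separated in this way was not taken. The calls of MCM2 (-0.37 ± 0.11), MCM3 (-0.25 ± 0.08) and CDC6 (-0.34 ± 0.11) were each lost without some single library. For MCM2 these were Telaglenastat tumors 1 and 2 and Combination tumors 3 and 4 (values from -0.35 to -0.30), for MCM3 the same and Telaglenastat tumor 4 (-0.26 to -0.19), and for CDC6 Telaglenastat tumors 1, 3 and 4 and Combination tumors 3 and 4 (-0.34 to -0.26). In all, 5 members were called without Telaglenastat tumor 1, Combination tumor 3 or Combination tumor 4. MCM5 did not differ beyond its error (-0.14, 95% interval -0.52 to 0.24).

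Setting the single drugs against each other, Telaglenastat tumors had 5 members higher than Palbociclib tumors (CDC6, GMNN, MCM4, MCM6 and MCM10), where 26.6% of all genes were, and 4 lower (CDT1, MCM2, MCM5 and MCM7), where 32.1% were. GMNN differed most among the higher ones (1.43 ± 0.15, adjusted p 1.19e-07, edgeR), followed by MCM10 (0.80 ± 0.13) and MCM6 (0.73 ± 0.07). With the correction 7 were higher, where 12.7% of all genes were, and MCM5 alone was lower (-0.63), where 14.6% were. MCM2, MCM7 and CDT1 changed direction with the correction, to 0.43, 0.30 and 0.75. GMNN (1.07), MCM10 (0.52) and MCM6 (0.39) were called higher in both fits.

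Whether the drugs added up on the log scale was tested by the interaction of both treatments. It gave 0 members called by edgeR, 0 by DESeq2 and 0 at an unadjusted p under 0.05, and 0.0673% of all genes were called. The estimates ran from -0.14 (MCM4) to 0.14 (MCM5), with 95% intervals from -0.40 to 0.13 and from -0.35 to 0.64, and the widest was that of CDT1 (-0.62 to 0.83).

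The ratio of CDT1 to GMNN, the loading factor over its inhibitor, was taken per length and described on the log2 scale, with no test. It was -1.02 ± 0.44 (SD, n = 3) in Control and -0.45 ± 0.43 (n = 5) in Palbociclib tumors, with values of -1.01, -0.59 and -1.46 in the former and -0.58, -1.15, -0.23, -0.21 and -0.09 in the latter. These 2 groups overlapped, and Palbociclib tumor 2 was the lowest of its group. Telaglenastat tumors (-2.64, -2.18, -3.05 and -3.16) and Combination tumors (-2.88, -1.83, -2.35 and -1.52) lay below all Control tumors. CDT1 and GMNN have the highest and the lowest GC content of the 10 members, and these ratios are not corrected for it. In cultures the means ran from -3.21 (Palbociclib) to -2.57 (Telaglenastat), and Telaglenastat culture 2 stood alone at -1.48.

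**Figure D4:**
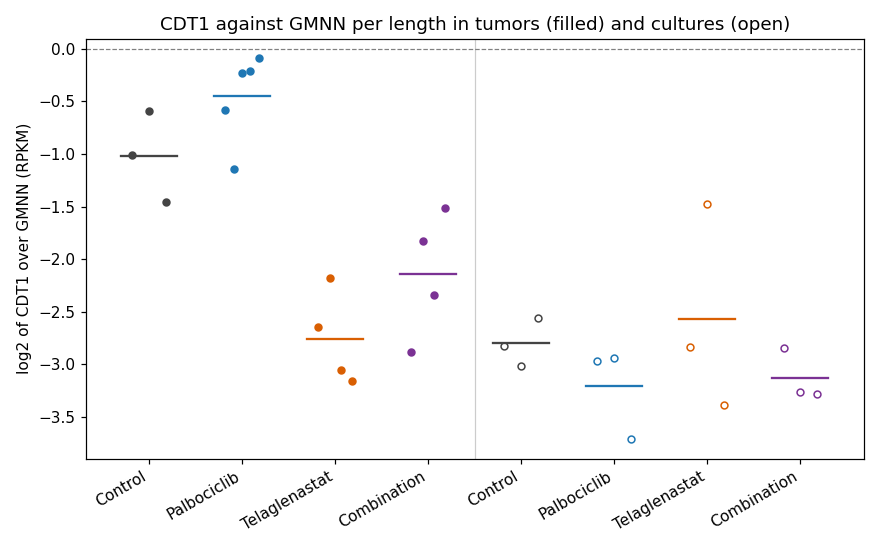
Log2 ratio of CDT1 to GMNN (RPKM) in each tumor (filled) and culture (open) by treatment, with lines at the group means and a dashed line at equal levels. Control and Palbociclib tumors lie between -1.46 and -0.09, and Telaglenastat and Combination tumors between -3.16 and -1.52.

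In the drug-free cultures, no treatment left a difference in the licensing genes that passed the test. Against Control cultures, 0 members were called for Palbociclib (0% of 13985 genes), 0 for Telaglenastat (0%) and 0 for Combination (0.00715%), and 0 for Combination against Palbociclib (0%) or Telaglenastat cultures (0%). DESeq2 also called 0 in each of these, and at an unadjusted p under 0.05 edgeR gave 0, 0, 0, 0 and 2 (MCM5 and CDT1). With the compared groups alone, edgeR gave 4, 0, 4, 1 and 0 at that level and again called 0 in each. These unadjusted counts have no share over all genes beside them. The intervals are wide. GMNN, which was lower in Palbociclib tumors, was 69.0, 84.6 and 62.3 CPM in Control and 62.4, 57.7 and 88.7 CPM in Palbociclib cultures, with a 95% interval of the log2 difference from -0.64 to 0.54. MCM6 was 336, 362 and 324 CPM in Control and 348, 362 and 379 CPM in Palbociclib cultures (interval -0.21 to 0.39). MCM5 was 66.6, 43.1 and 69.8 CPM in Control and 32.9, 32.5 and 38.3 CPM in Combination cultures, which did not overlap (log2 fold change -0.80, interval -1.73 to 0.14, adjusted p 0.681, edgeR). Against Control cultures, GC content and log2 fold change of the members correlated at -0.88 (Palbociclib), 0.82 (Telaglenastat) and -0.80 (Combination) on the counts. With GC content and length corrected these were 0.13, 0.60 and 0.06, and 0 members were called in each. The part of GC content in the culture values was not tested.

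The spread in cultures came largely from the Telaglenastat lines. Telaglenastat culture 1 was the lowest of its group for all 10 members, with MCM10 at 52.0 CPM beside 98.5 and 111 in the other lines. Telaglenastat culture 2 was the highest for MCM2, MCM3, MCM4, MCM5, MCM7 and CDT1, with MCM7 at 554 CPM beside 174 and 248, MCM5 at 138 beside 30.2 and 35.0, and CDT1 at 25.4 beside 7.78 and 12.7. The summed ring subunits were 931, 2093 and 1585 CPM in these lines, against 1617 to 1763 CPM in Control cultures. Without Telaglenastat culture 2 still 0 members were called against Control, and MCM5 moved from 0.18 to -0.88 and MCM7 from -0.00 to -0.62.

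**Figure D5:**
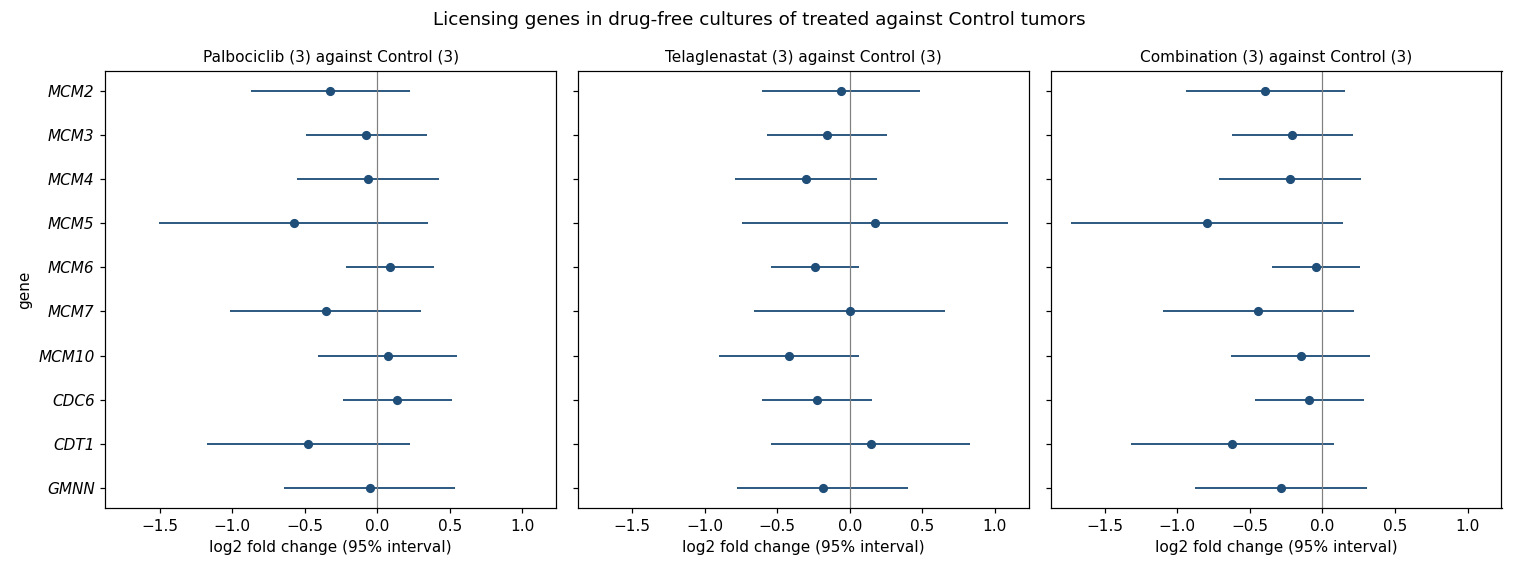
Log2 fold changes (points) with 95% intervals (bars) of the 10 genes in cultures from Palbociclib, Telaglenastat and Combination tumors against Control cultures, on counts as deposited. The intervals include 0 for all 10 genes in the 3 panels, and that of MCM5 is the widest.

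Control tumors held less of most licensing transcripts than Control cultures. On the counts 7 members were lower in tumors, where 22.8% of all 15466 genes were, and with the correction 9 (all but MCM5), where 22.7% were. CDC6 differed most, at 68.7, 73.0 and 56.7 CPM in tumors and 219.99, 238 and 196 CPM in cultures (log2 fold change -1.72 ± 0.16, adjusted p 3.81e-09, edgeR). MCM10 (-1.52 ± 0.20), GMNN (-1.40 ± 0.24) and MCM6 (-1.30 ± 0.12) followed. MCM4 (-0.96 ± 0.18), MCM3 (-0.89 ± 0.15) and MCM2 (-0.57 ± 0.20) were lower as well, and the call of MCM2 was lost without Control culture 1 or 3 or Control tumor 1 or 3 (values from -0.55 to -0.50). MCM7 (-0.43 ± 0.25), CDT1 (0.44 ± 0.29) and MCM5 (0.15 ± 0.33) did not pass on the counts, but MCM7 was called, at the same size, without Telaglenastat culture 2 (adjusted p 0.0324, edgeR). The corrected values of MCM7 (-0.87) and CDT1 (-0.53) did. The summed ring subunits were 977 ± 25 CPM in tumors and 1693 ± 73 CPM in cultures (SD, n = 3 each), and the proliferation list was lower in tumors too, as given above.

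Because a call in tumors and none in cultures does not show a difference, the effects were also compared with each other in a fit of all 28 libraries. The Palbociclib effect differed for 1 member, MCM6 (-0.62 ± 0.16, adjusted p 0.0459, edgeR), where 1.03% of all genes were called lower, and with the correction for 0, where 1.03% were called in either direction. That call was lost, at values from -0.65 to -0.57, without any 1 of 17 libraries, namely Control cultures 1 and 3, each Palbociclib culture, Combination culture 2, each Control tumor, Palbociclib tumors 3 to 5, each Telaglenastat tumor and Combination tumor 2. GMNN (-1.12 ± 0.33, adjusted p 0.0876) and MCM10 (-0.82 ± 0.27, adjusted p 0.138) had larger estimates that did not pass. At an unadjusted p under 0.05 (edgeR), 3 members differed on the counts and 6 with the correction, without a share over all genes to set beside them.

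The Telaglenastat effect was lower in tumors for 4 members (CDT1, MCM2, MCM5 and MCM7), where 18.5% of all genes were, and higher for 2 (CDC6 and MCM6), where 15.6% were. With the correction 0 members differed, where 3.8% of all genes did in either direction, and 1 had an unadjusted p under 0.05. The values of MCM5 (-1.88 ± 0.46), CDT1 (-1.55 ± 0.41), MCM7 (-0.94 ± 0.34) and MCM2 (-0.76 ± 0.28) rested in part on Telaglenastat culture 2. Without it, CDT1 was at -0.96, MCM2 at -0.33 and MCM7 at -0.31, and none of these was called, while MCM5 was at -0.81 and still called (range over all libraries left out -2.23 to -0.81). MCM2 and MCM7 also lost their calls without Control culture 2, Control tumor 2 or 3, or Telaglenastat tumor 3, and MCM2 without Control tumor 1 or Telaglenastat tumor 4. CDC6 (0.58 ± 0.22) lost its call without any 1 of 11 libraries (Control cultures 1 and 2, Palbociclib culture 1, Telaglenastat cultures 1 and 2, Combination culture 3, Control tumors 1 and 3 and Telaglenastat tumors 1, 3 and 4), with values from 0.37 without Telaglenastat culture 1 to 0.62 without Telaglenastat culture 2, and with DESeq2 size factors, when 4 members were lower and 1 higher. MCM6 (0.54 ± 0.16) was called in each of these fits, but not without a filter on low counts (0.41) or with the correction (0.16). The Combination effect differed for 0 members by edgeR, where 2.91% of all genes did, and with the correction for 0, where 2.64% did. By DESeq2 it differed for 3, all lower, where 343 of all genes were lower and 377 higher. At an unadjusted p under 0.05 (edgeR), 4 members differed on the counts, again without a share over all genes.

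A further 30 genes were counted, from lists of origin recognition, helicase activation and origin firing, MCM relatives and MCM binding protein, and CDT1 turnover. Of these, 12 were lower and 0 higher in Palbociclib than in Control tumors on the counts, where 3.6% of all genes were lower. The numbers were the same with the correction, where 4.03% were. Of these 30, the list of helicase activation and origin firing held 14 genes, of which 7 were lower (median log2 fold change -0.44). GINS2, a subunit of the GINS complex that joins the active helicase, was at -0.97 ± 0.13. WDHD1, a replisome protein, was at -0.65 ± 0.08. PCNA, the sliding clamp, placed in the CDT1 turnover list and also in the proliferation list, was at -0.73 ± 0.08. Of the 7 origin recognition genes 1 was lower, ORC1. In Telaglenastat tumors 7 of the 30 were lower and 13 higher on the counts, where 28.5% and 22.6% of all genes were, and 2 lower and 0 higher with the correction, where 7.58% of all genes were lower. The shares of the 30 that were lower thus did not exceed those of all genes. RECQL4, a helicase of origin firing, was at -2.33 ± 0.30 on the counts and was not called with the correction.

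In Combination tumors 14 of the 30 were lower and 4 higher on the counts, where 26.9% of all genes were lower and 2614 of 14848 higher, and 18 lower and 1 higher with the correction, where 13.1% were lower and 1925 higher. ORC1, the origin recognition subunit whose level changes through the cell cycle, was at -1.61 ± 0.17 on the counts and -1.56 corrected. Against Telaglenastat tumors Combination tumors had 16 lower and 0 higher, where 9.89% of all genes were lower, and with the correction 13 and 0, where 7.07% were lower. In cultures 0 of the 30 were called in any comparison between treatments, and in Control tumors 25 were lower and 1 higher than in Control cultures, where 22.8% of all genes were lower and 3568 of 15466 higher. DTL, an adaptor of CDT1 degradation, was at -1.38 ± 0.13 there and DBF4, the activator of CDC7, at -1.27 ± 0.14.

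The genes most like the ring subunits were ranked by Pearson correlation of log2 CPM with the mean of MCM2 to MCM7. Over the 16 tumors, among 9368 genes of at least 10 CPM, they were TUBA1B (0.97), ESPL1, CDC20, MYBL2 and NUP210. Over the 12 cultures, among 8799 genes, they were PLK1 (0.99), PARP1, CDCA8, PSMD2 and SRM. These values are descriptions, and the libraries share treatment, depth and the GC slope. The 5 tumor genes have GC contents from 54.1% to 60.2%.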

How the data were processed

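RNA-seq was measured in 28 libraries, and samples were grouped by treatment and by tumor or culture from the labels. The authors purified poly(A) RNA, made strand-marked libraries, sequenced single-end reads (CASAVA 1.8), aligned them with STAR (hg38 per the submitters' processing notes) and deposited whole-number counts of reads per gene, not normalized. The annotation release and the strand setting of the counting are not given in the sources used here. The study used DESeq2. Here tumors, cultures and, for comparisons between them, all libraries were each fitted as group means with edgeR 4.0.16 in R 4.3.3 (filterByExpr with minimum count 10, TMM, quasi-likelihood test), with Benjamini-Hochberg adjustment over all genes tested and a threshold of 0.05. Intervals are 95%. CPM use TMM over all 28 libraries. Gene IDs were matched to GENCODE release 29 (57940 of 58278), which gave lengths, GC content and overlaps. The correction fitted each library's deviation on GC content and log length by splines with 4 degrees of freedom (rlm, MASS 7.3.60.0.1) and entered the trend as offsets. Alternatives were DESeq2 1.42.0, its size factors, other filters, a replicate block, other sample sets and leaving out each library. Fits were tested on simulated data. Members and lists were chosen with earlier results of these data known. The named genes are all 10 members, up to 3 other licensing genes per comparison by size of change, and the 5 most like patterns. No columns were left out and no batch is given in the labels.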

Additional observations from a re-analysis of the deposited data

Results flagged for a closer look

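The levels of the 10 members, the CDT1 to GMNN ratio and the summed ring subunits were each tested for a library apart from the others in the Palbociclib, Telaglenastat and Combination tumors. Of these 36 tests, which share libraries and are not independent, 3 passed Dixon's criterion, where chance gives about 1 in 20. MCM2 was 58.8 CPM in Palbociclib tumor 2, beside 78.0 to 82.1 CPM in the other tumors of that group. MCM5 was 33.0 CPM in the same tumor, beside 57.1 to 61.5 CPM, and this tumor has the lowest GC slope of its group (0.096). MCM7 was 91.6 CPM in Telaglenastat tumor 3, beside 135 to 141 CPM, and this tumor has the lowest GC slope of all tumors (-0.386). The part of the slope in these values was not tested.

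Effects of treatment differed between tumors and cultures, by the test of the difference on the counts, for 7 combinations of gene and treatment. For Palbociclib this was MCM6, at -0.62, where 1.03% of all genes were called lower. That call was lost without any 1 of 17 libraries. For Telaglenastat, MCM2 (-0.76), MCM5 (-1.88), MCM7 (-0.94) and CDT1 (-1.55) were lower in tumors, where 18.5% of all genes were. MCM6 (0.54) and CDC6 (0.58) were higher in tumors, where 15.6% of all genes were. Without Telaglenastat culture 2, MCM2, MCM7, CDT1 and CDC6 were not called. With GC content and length corrected, 0 of the 7 were called.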

How the results depend on the processing

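The called values of members numbered 58 over all comparisons. Of these, 56 kept call and direction with DESeq2, 54 with DESeq2 size factors in edgeR, 55 without a filter, 57 with at least 10 counts in every library, 55 with the compared groups alone and 53 with the replicate block. In one fit of all 28 libraries, which leaves out the comparisons already fitted so, 32 did and 12 lost the call. With the GC and length correction 37 did, 13 lost the call and 8 turned direction, and with correction and block 37, 12 and 9. The cause of each change was not tested.

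Numbers of members called moved as follows. In one fit of all 28 libraries, Palbociclib tumors against Control gave 3 lower (348 of all genes) and Combination against Telaglenastat tumors 4 lower (1079). There the median of all genes shifted to 0.13 in Telaglenastat against Control, 0.12 in Combination against Palbociclib and 0.10 in Telaglenastat against Palbociclib tumors. With the correction, Telaglenastat tumors against Control gave 1, also with the block, and Combination against Palbociclib tumors 3. Without a filter, Combination cultures gave 1 against Control and 2 against Telaglenastat, all lower, where 128 and 698 of all genes were lower. The Palbociclib effect difference gave 2 with DESeq2, 3 without a filter and 3 with the compared groups alone. All were lower, where 354, 315 and 282 of all genes were lower. It gave 0 with the block, the correction or both. The Telaglenastat difference gave 2 lower and 1 higher with the compared groups alone, where 2098 and 1791 of all genes were. It gave 0 with the correction, with or without the block. The Combination difference gave 3 with DESeq2, 5 without a filter, 1 with at least 10 counts and 4 with the compared groups alone. All were lower, where 343, 1001, 170 and 727 of all genes were lower. The summed ring subunits of Control tumors were 1079 CPM on raw library totals.

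Values that turned direction, with the correction and then with correction and block, were in Telaglenastat against Control tumors MCM2 (0.0057, 0.021), MCM6 (-0.084, -0.075) and CDT1 (0.047, 0.0998), and MCM3 with both (0.0082). In Telaglenastat against Palbociclib tumors they were MCM2 (0.43, 0.41), MCM7 (0.30, 0.29) and CDT1 (0.75, 0.77), and in the Telaglenastat effect difference MCM2 (0.19, 0.22) and CDT1 (0.22, 0.27).

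Leaving out each library gave 4 to 7 members for Palbociclib tumors, 4 to 6 for Telaglenastat, 9 for Combination, 6 for Combination against Palbociclib, 5 to 8 against Telaglenastat, 9 for Telaglenastat against Palbociclib and 6 to 8 for Control tumors against cultures. It gave 0 for the interaction and for cultures, save 1 for Combination against Telaglenastat cultures without Telaglenastat culture 1. The effect differences gave 0 to 3 (Palbociclib, 3 without Telaglenastat culture 1), 2 to 8 (Telaglenastat, 2 without Telaglenastat culture 2, 3 without Control culture 2, Control tumor 3 or Telaglenastat tumor 3) and 0 to 4 (Combination, 4 without Telaglenastat culture 2, 3 without culture 1 and 1 without culture 3). Replicate numbers did not pair the samples (correlations of deviations from -0.115 to 0.0806 over 18 pairs in tumors, -0.365 to 0.133 in cultures), so the block shows only a shared number.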
